A study of Mus musculus with 17 samples.

Results

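The 8 genes Mbp, Mag, Mog, Mobp, Mal, Opalin, Cnp and Cldn11 encode structural proteins and enzymes of central myelin. They were taken by symbol from the merged table of unique molecular identifier (UMI) counts, in which all 8 are present among 23284 genes. The table comes from Drop-seq, a method that captures single cells with barcoded beads in droplets, applied to dissociated mouse hypothalamus. All 8 mice were B6D2F1 hybrids (C57BL6 female crossed to DBA2 male), of which 5 were fed normally and 3 were deprived of food for 24 hours. The labels give no age. The 17 libraries of these mice were made in 5 batches, and only the batches numbered 1 and 2 held a mouse of each feeding state. Cell names came from the authors' deposited clustering, in which 1707 cells were named OPC, 149 IMO and 3501 MO, and 2297 were neurons (the clusters named GABA, Glu and Hista).

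Oligodendrocytes wrap axons in compacted layers of membrane. They arise from precursor cells, which stop dividing, express early myelin genes while extending processes, and express later genes once the sheath forms. Cnp encodes the enzyme cyclic nucleotide phosphodiesterase, which keeps cytoplasmic channels in the sheath open. Mbp encodes myelin basic protein, which holds the cytoplasmic membrane faces together and whose mRNA is carried into the processes. Cldn11 encodes the claudin of the tight junctions between myelin layers, and Mag encodes an adhesion protein of the layer next to the axon. Mog encodes a protein of the outermost layer, and Opalin a transmembrane glycoprotein of central myelin. Mobp encodes a small basic protein of compact myelin, and Mal a proteolipid of sorted membrane domains that also serves apical transport in epithelial cells.

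Promoters of 7 of the 8 genes were used from the RefSeq table (build GRCm38.p6), with 9 start sites in all. Mbp was left out by the selection of promoters, so its start sites are not described. The 250 bases before each start are described because all 8 genes are higher in MO than in OPC. Capitals mark the words AACAAT or ACAAAG on either strand, the core bound by SOX factors, of which SOX10 is a regulator of myelin genes. Of the 4 promoters shown, Mobp holds 6 of these words and the other 3 hold 1 each. They are Cnp at chr11:100574689-100574938 (plus strand), Mag at chr7:30914864-30915113 (minus strand), Mobp at chr9:120149492-120149741 (plus strand) and Opalin at chr19:41077114-41077363 (minus strand).
Cnp: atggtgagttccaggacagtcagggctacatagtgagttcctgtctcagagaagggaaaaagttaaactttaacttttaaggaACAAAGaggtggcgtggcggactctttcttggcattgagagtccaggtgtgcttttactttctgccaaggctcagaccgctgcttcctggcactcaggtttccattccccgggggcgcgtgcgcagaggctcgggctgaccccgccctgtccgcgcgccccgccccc
Mag: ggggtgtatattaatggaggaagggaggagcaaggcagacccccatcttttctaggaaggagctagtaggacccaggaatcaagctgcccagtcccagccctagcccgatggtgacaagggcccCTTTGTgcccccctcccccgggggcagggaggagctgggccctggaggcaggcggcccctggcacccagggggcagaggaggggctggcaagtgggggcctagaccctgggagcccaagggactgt
Mobp: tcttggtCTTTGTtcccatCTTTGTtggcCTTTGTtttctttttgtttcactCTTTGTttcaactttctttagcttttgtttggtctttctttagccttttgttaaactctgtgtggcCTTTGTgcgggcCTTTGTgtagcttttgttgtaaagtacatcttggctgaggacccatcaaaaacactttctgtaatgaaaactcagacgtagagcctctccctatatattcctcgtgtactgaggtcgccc
Opalin: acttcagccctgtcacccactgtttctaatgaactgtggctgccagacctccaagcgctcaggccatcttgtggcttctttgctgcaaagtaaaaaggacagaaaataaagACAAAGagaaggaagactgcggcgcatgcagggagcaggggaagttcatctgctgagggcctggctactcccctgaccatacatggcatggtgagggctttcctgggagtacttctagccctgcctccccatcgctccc
The SOX core was present in 5 of the 9 promoters, 2 of which are overlapping Mag windows with the same match, and in 24.0% of the 32851 promoters of the table. The 6 matches of Mobp are a number reached or passed by 2 of the 32851 promoters, Mobp included. The words CTGGCAC or CTGGTAC, a core bound by MYRF, were present in 4 of the 9 promoters (Cnp, Mog and a pair of overlapping Mag windows) and in 5.93% of all promoters. CAGCTG or CAGATG, an E-box, was present in 1 of the 9 promoters, that of Opalin, and in 25.5% of all promoters. The 3 motifs share no word, and all were searched on both strands. A match describes the letters only, and binding was not measured.

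Some libraries stood apart. Of the 17 libraries, 8 retained housekeeping transcripts such as Gapdh and 9 were nearly without them (under 50 CPM, UMIs scaled to a total of 1000000), in the deposited counts. Levels per mouse pool the libraries of that mouse. Library totals ran from 366371 to 5997610 UMIs, and the 8 genes made up 0.199% to 1.67% of them. Median UMIs per cell ran from 1444 to 2389 over the mice, and cells per mouse from 129 to 3639. Food-deprived mouse 3 had 61 MO cells, 4.74% of its cells, where the other mice had 17.7% to 30.2%. Across libraries 120 barcodes occurred more than once, and the 161 cells whose name could not be tied to a single library were left out. The markers of other lists followed the names. Genes of precursors summed to 11887 ± 1125 CPM (mean ± SD, 8 mice) in OPC and 1582 ± 334 in MO. Genes of newly formed oligodendrocytes summed to 7434 ± 474 CPM (5 mice) in IMO and 458 ± 405 in MO. The class named Epith was led by endothelial and mural markers, at 15948 ± 1650 CPM (6 mice), so it is called by its deposited name.

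All 8 genes were higher in MO than in OPC, with different levels in IMO. Cnp and Mbp were near their MO level in IMO, whereas Mobp, Opalin and Mal were at 1.54% to 4.30% of it. Cldn11, Mag and Mog lay between. Together the 8 genes made up 748 ± 330 CPM in OPC (8 mice), 20773 ± 3792 in IMO (5 mice) and 45990.4 ± 7064 in MO (8 mice). The classes were built from the same cells and genes, so these values are a description with no test. A level is given where a mouse had 10 or more cells of the class.

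Cnp was the member with the clearest level in OPC. Its level there was 47.9, 283, 242, 246 and 196.5 CPM in the 5 normal mice and 330, 257 and 272 CPM in the 3 food-deprived mice. All mice but normal mouse 1 lay close together, and the states overlapped. In IMO it was 6127, 4638 and 5024 CPM in normal mice 3, 4 and 5 and 6624 and 4999 CPM in food-deprived mice 1 and 2. In the same mice IMO was a median of 20.1-fold above OPC, from 18.9 to 25.6, and MO was 1.12-fold above IMO, from 1.01 to 1.55. IMO held 84.1% ± 15.1 of the MO level (SD, 5 mice).

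Mbp was also close to its MO level in IMO, where it stood at 11101, 6709 and 11959 CPM in normal mice 3, 4 and 5, and at 8740 and 10565 CPM in food-deprived mice 1 and 2. In OPC it varied much more than Cnp, from 33.0 CPM in food-deprived mouse 3 to 874 CPM in normal mouse 2. The IMO level was a median of 33.7-fold above OPC (28.9 to 92.6) and 87.2% ± 22.8 of MO. MO was above IMO in 4 of 5 mice, with a median ratio of 1.14 (0.827 to 1.70). Normal mouse 5 was the exception, with less Mbp in MO (9884 CPM) than in IMO.

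Cldn11 and Mag, a junction and an adhesion protein, reached roughly similar parts of their MO level in IMO. Cldn11 was 3075, 1564 and 2828 CPM in normal mice 3, 4 and 5 and 3301 and 2996 CPM in food-deprived mice 1 and 2, which is 41.9% ± 12.3 of MO. Mag was 2050.2, 969 and 2733 CPM in the normal mice and 2591 and 2384 CPM in the food-deprived mice, which is 34.4% ± 13.8 of MO. Both were lowest in normal mouse 4. MO exceeded IMO by a median of 2.27-fold for Cldn11 (1.75 to 4.22) and 2.73-fold for Mag (2.00 to 7.51), in 5 of 5 mice each. The ranges of the genes over mice overlapped in IMO, and within mice Cldn11 was above Mag in 5 of 5.

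Mog, the gene of the outermost layer, was present in IMO at a small part of its MO level. It stood at 326, 154 and 332 CPM in normal mice 3, 4 and 5 and at 417 and 490 CPM in food-deprived mice 1 and 2. The mean was 12.9% ± 4.59 of MO, and MO was 7.55-fold higher by the median (5.64 to 18.0). In OPC Mog averaged 15.5 ± 16.0 CPM.

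Opalin, Mobp and Mal were low in IMO. Opalin was 39.7, 11.02 and 79.0 CPM in the normal mice and 43.9 and 96.6 CPM in the food-deprived mice. Mobp was 222, 33.1 and 174 CPM in the normal mice and 43.9 and 103 CPM in the food-deprived mice. MO was a median of 38.5-fold above IMO for Opalin (18.3 to 51.1) and 40.5-fold for Mobp (10.6 to 102). Mal had 6, 0 and 0 UMIs in the normal mice, or 47.7 CPM in normal mouse 3, and 11 and 30 UMIs, or 80.5 and 193 CPM, in the food-deprived mice. Its IMO level was higher than in OPC in 3 of 5 mice. These late genes were also at or near the level of neurons in OPC. Mobp averaged 17.6 ± 15.8 CPM in OPC and 14.8 CPM in neurons, and Mal 15.9 ± 12.1 CPM against 22.1 CPM.

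In MO the genes were ordered from Mbp to Opalin. Mbp was highest at 11572.5 ± 1207 CPM (9884 to 13852, 8 mice). Mag (7484 ± 1843), Cldn11 (7227 ± 1741) and Cnp (7147 ± 1246) had similar means, and their ranges over mice overlapped. Within mice Mag was above Cldn11 in each normal mouse and below it in each food-deprived mouse, and this order was not tested. Mal followed at 4637 ± 921 CPM, Mobp at 3386 ± 761 and Mog at 2713 ± 207. Opalin was lowest at 1824 ± 334 CPM. Drop-seq counts transcripts at their 3' end, and no length was used.

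**Figure D1:**
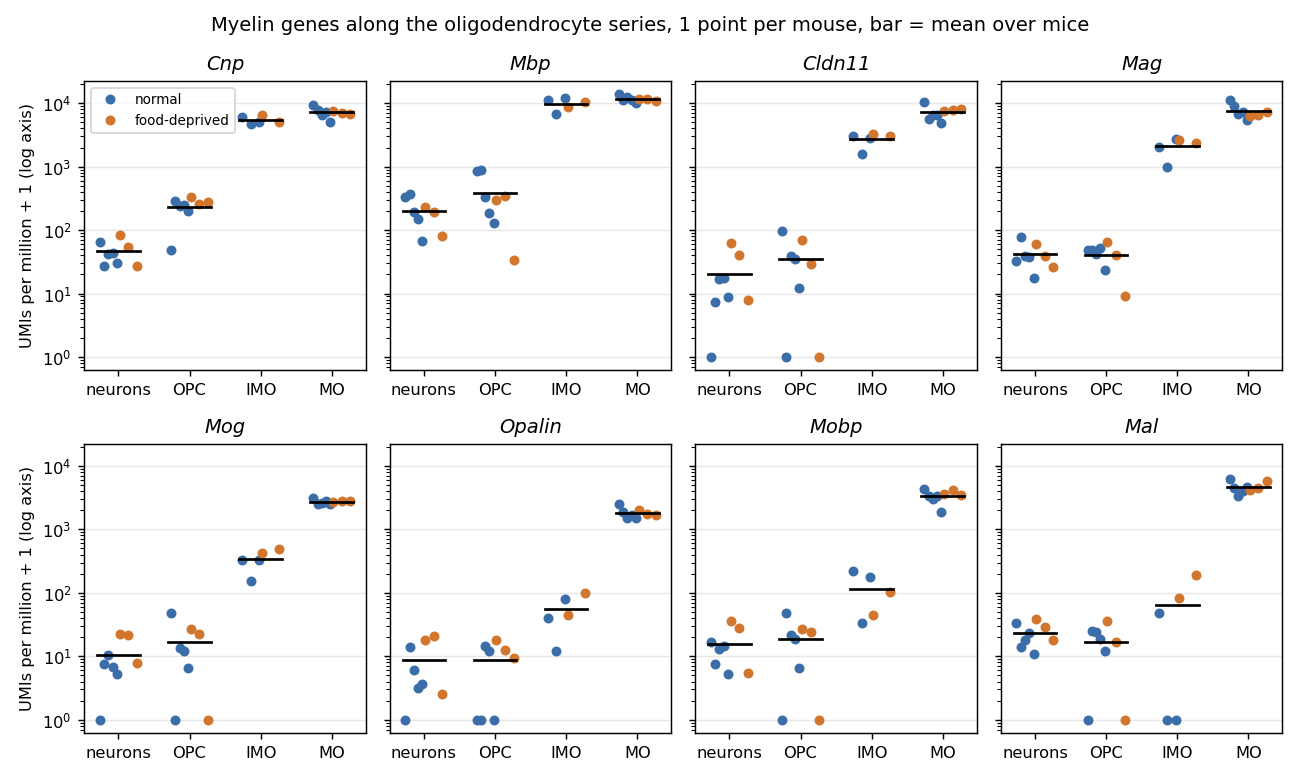
Levels of each myelin gene (CPM + 1, log axis) in neurons, OPC, IMO and MO, with 1 point per mouse and a bar for the mean over mice. Cnp and Mbp are near their MO level in IMO, while Mal, Mobp and Opalin are far below it.

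The shares of IMO cells with a UMI were likewise highest for Cnp and Mbp and lowest for Opalin, Mobp and Mal. The order was not the same throughout, as Cnp was above Mbp and Opalin above Mobp in these shares. Cells were thinned to 1000 UMIs each so that classes of different depth could be compared, and 118 OPC, 7 IMO, 252 MO and 147 neurons were too shallow for this. Median depths were 2020, 3716, 2195 and 3930 UMIs in OPC, IMO, MO and neurons. Of 142 IMO cells, 98.6% had Cnp (95% exact binomial interval 95 to 99.8), 78.9% Mbp (71.2 to 85.3), 60.6% Cldn11 (52.0 to 68.7) and 50% Mag (41.5 to 58.5). The intervals cover counting error only. Mog was found in 23.9% of IMO cells, Opalin in 6.34%, Mobp in 3.52% (1.15 to 8.03) and Mal in 2.11% (0.438 to 6.05). In neurons, which do not make myelin, Mobp was found in 1.77% (1.25 to 2.42), Mal in 2.09% and Opalin in 0.791% (0.461 to 1.26). The intervals of Mobp and Mal in IMO reach those shares, and that of Opalin (2.94 to 11.7) lies above.

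The share with Cnp separated OPC from neurons. After thinning, 21.3% of 1589 OPC cells had Cnp (19.3 to 23.4) and 4.98% of 2150 neurons did (4.10 to 5.98). Mbp was found in 22.4% of OPC cells (20.4 to 24.5) and in 15.3% of neurons (13.8 to 16.8). The other genes were in 1.20% (Opalin) to 3.84% (Cldn11) of OPC cells. Without thinning the shares were 38.8% and 16.5% for Cnp in OPC and neurons, and 37.9% and 44.0% for Mbp, so the order of Mbp turned with depth. The Mbp gene also encodes the golli proteins from other starts, and counts per gene do not tell its transcripts apart.

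**Figure D2:**
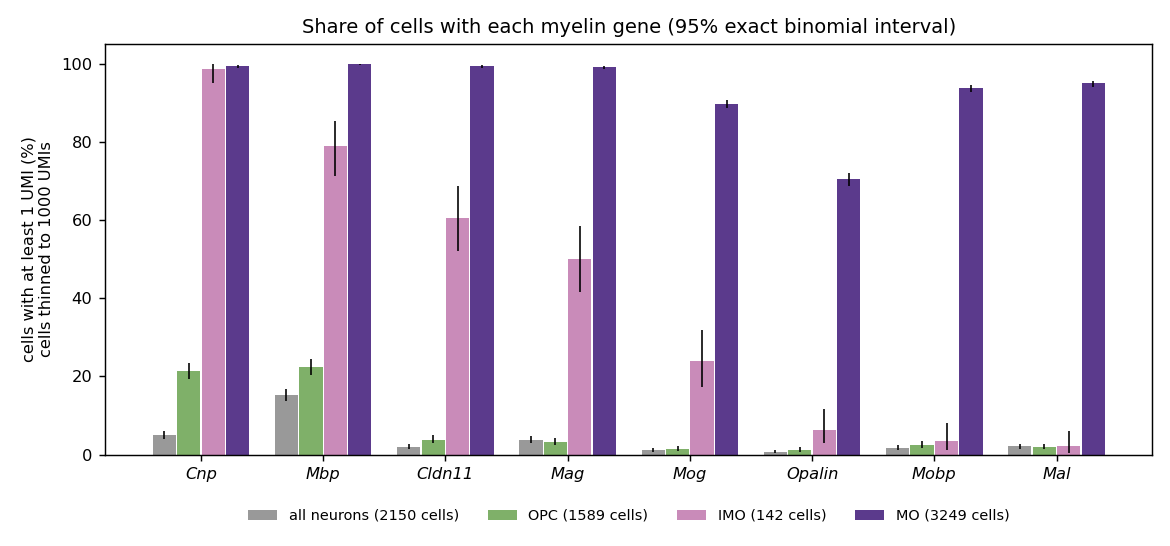
Share of thinned cells with at least 1 UMI of each gene (percent) in neurons, OPC, IMO and MO, with 95% exact binomial intervals as bars. In MO every gene but Opalin (70.4%) was found in at least 89.8% of cells, and in IMO the shares fall from Cnp to Mal.

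Within IMO cells the genes overlapped in part. Among thinned cells with Mag, 95.8% had Mbp, where 78.9% of all IMO cells did. Of the 34 cells with Mog, 25 had all of Mbp, Mag, Cnp and Cldn11, and of the 58 cells with those 4 genes, 11 had Mobp, Mal or Opalin. Mog was present in 20% of the 5 cells with Mobp, 33.3% of the 3 with Mal and 44.4% of the 9 with Opalin. It was present in 23.9% of all IMO cells, so to lack a UMI of Mog was the usual case in the class. The late genes sat in few cells, and 5 cells held 82.8% of Mobp's 64 UMIs in IMO. The same share was 75.5% of Mal's 49 UMIs and 66.7% of Opalin's 33, against 11.8% of Cnp's 3412. No doublet caller was run, and whether those cells are doublets with MO was not tested. Per mouse, the share of IMO cells with Cnp ran from 92.3% to 100%. MO cells had a median of 8 of the 8 genes and IMO cells of 3.

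Other gene lists also differed along the series. The myelin lipid synthesis genes went from 2556 CPM in OPC to 5121 in IMO and 9061 in MO. The sum of the genes listed under oligodendrocyte transcription factors went the other way, from 5630 to 4295 and 3214 CPM. Olig1 weighed most in this, with a mean over the normal mice tested of 3975 CPM in OPC and 1464 in MO. The fall does not hold for each gene of the list, as Carhsp1 went from 47.2 CPM in OPC to 441 in MO in normal mice. The factor Myrf, counted under the symbol Gm98, went from 6.30 CPM in OPC to 142 in MO, pooled over mice. Over 41 clusters with at least 20 cells, genes that tracked the mean of the members closely, among 3349 genes, were Adamts4, a protease (Pearson r 0.896), Trf, transferrin (r 0.883), Cryab, a small heat shock protein (r 0.881), and Gm98, a synonym of Myrf, the myelin regulatory factor (r 0.881). The 8 members correlated with each other at r 0.644 (Mbp with Mal) to 0.909 (Mbp with Cldn11). These correlations describe clusters that share libraries, and they carry no p.

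Outside the series the 8 genes were low, and their proportions varied by class. In neurons the genes summed to 361 ± 153 CPM (142 to 544, 8 mice). Mbp made up 52.0% ± 9.77 of those UMIs, against 25.4% ± 2.27 in MO, and its share was above that of the same mouse's MO in 7 of 7 mice. This was not particular to neurons. The Mbp share was above MO in OPC (43.5%, 6 of 6 mice), IMO (44.3%, 8 of 8), Micro (38.1%, 4 of 4) and barcodes without a cluster name (36.8%, 7 of 8). In Ependy and Epith it was below MO in 4 of 6 mice each. Neurons held Mbp at 1.71% ± 0.857 of the MO level, and the other 7 genes at 0.272% to 0.638%. The neuronal cluster Glu4 had the highest sum pooled over mice, 946 CPM, where the other neuronal clusters had 154 to 574. Its sum was 288 and 386 CPM in normal mice 3 and 4 (27 and 13 cells). It was 1125 and 1309 CPM in food-deprived mice 1 and 2 (43 and 44 cells), so those 2 mice carry its rank. Normal mouse 5 had 3 Glu4 cells, too few for a level.

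In Ependy Cnp had the highest mean level of the 8 genes, at 252 CPM against 185 for Mbp. In Tany Mbp was above it, at 210 CPM against 167 for Cnp. The markers of tanycytes and ependymal cells, which line the ventricles, summed to 11410.5 ± 1288 CPM in Ependy and 2032 ± 202 CPM in Tany, against 44.4 ± 84.1 CPM in MO. In Ependy Cnp was 351, 226, 165, 252 and 223 CPM in the 5 normal mice and 320.2, 255 and 222 CPM in the food-deprived mice. All 8 mice lay in that narrow range, while Mag, by contrast, stood at 0.257% of its MO level. Cnp was 3.54% ± 0.649 of its MO level in Ependy, 2.35% ± 0.823 in Tany and 3.41% ± 1.22 in OPC. It made up 54.6% ± 9.40 of the 8 genes' UMIs in Ependy and 36.0% ± 12.7 in Tany, where MO had 15.5% ± 1.06. The share was above that of the same mouse's MO in 6 of 6 and 5 of 5 mice. This was not particular to these classes. The Cnp share was also above MO in OPC (37.1%, 6 of 6 mice), IMO (31.1%, 8 of 8) and Astro (21.8%, 7 of 7). Of thinned cells, 25.4% of Ependy (21.1 to 30.1) and 12.2% of Tany (9.57 to 15.2) had Cnp, above the 4.98% of neurons.

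Mal was marked in Epith. It stood at 413, 573 and 404 CPM in normal mice 3, 4 and 5 and at 566, 697 and 629 CPM in the 3 food-deprived mice, and the states overlapped. This was 12.6% ± 2.50 of the MO level, where the other 7 genes were at means of 1.17% to 2.48%. Mal made up 51.8% ± 21.8 of the 8 genes' UMIs in Epith and 10.1% ± 1.69 in MO, and it was above MO in 6 of 6 mice. It was found in 35.1% of thinned Epith cells (32.1 to 38.2), against 2.09% of neurons. Both Epith clusters held it, Epith1 at 463 to 847 CPM and Epith2 at 263 to 519, and Epith1 was the higher in 6 of 6 mice. In Ependy Mal was found in 6.08% of cells (3.90 to 8.99) at 1.34% ± 0.758 of MO.

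**Figure D3:**
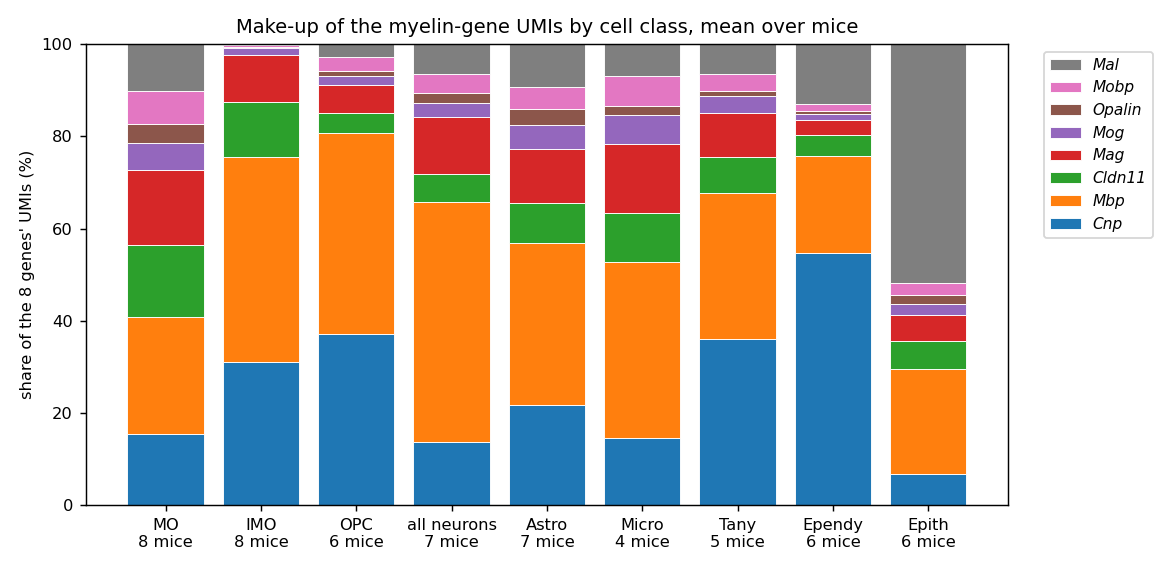
Share of each gene among the UMIs of the 8 genes (percent, mean over mice with at least 50 such UMIs) by cell class. Mal fills 51.8% in Epith, Cnp 54.6% in Ependy and Mbp 52.0% in neurons, whereas MO is spread over all 8 genes.

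In other classes the UMIs sat in few cells. In Astro 64 cells (5.61%) had at least 1% of their UMIs in the 8 genes, and the top 5% of cells held 57.1% of the class's UMIs of these genes. The top 5% held 71.8% in Micro, 62.5% in Macro, 42.9% in Glu and 37.1% in Epith, against 10.7% in Ependy and 19.5% in GABA. In MO 99.3% of cells were above that share of 1%. Their median was 4.26% of a cell's UMIs, and the values from the 10th to the 90th percentile were 3.27% to 5.36%. The sums in Astro were 1433, 1602 and 4959 CPM in normal mice 3 to 5 and 4418, 4406 and 875 CPM in the food-deprived mice, and the states overlapped. In both batches with a mouse of each state the food-deprived mouse was the higher (4418 against 1433 CPM and 4406 against 1602 CPM). Whether doublets with MO supply these UMIs was not tested.

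The level in neurons was compared with the level elsewhere in the same mouse, over the 7 mice with at least 20 neurons. Outside the neurons the 8 genes stood at 15954, 12063, 12833 and 6167 CPM in normal mice 2 to 5 and at 14357, 15935 and 2969.8 CPM in food-deprived mice 1 to 3. In the neurons of the same mice they stood at 513, 332, 291 and 142 CPM and at 544, 419 and 169 CPM. Normal mouse 5 and food-deprived mouse 3 were lowest on both measures. Pearson's r was 0.876 (exact permutation p 0.0105, adjusted over both coefficients 0.0210, n = 7) and Spearman's rho 0.821 (exact permutation p 0.0341, adjusted 0.0341). Without normal mouse 5 and food-deprived mouse 3 r was 0.700 (exact permutation p 0.242, n = 5), so the relation rests on them. Spearman's rho had an exact permutation p of 0.0583 to 0.103 on leaving out any 1 mouse but food-deprived mouse 1, 0.0663 with the MO share of cells in place of the level outside, and 0.0881 without the top 5% of neurons. Within batches 1 and 2, with 2 mice each, the mouse with the higher level outside also had the higher level in neurons, and no correlation can be computed there. The neuronal level was 2.27% to 5.70% of the level outside, and the highest ratio was that of food-deprived mouse 3.

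**Figure D4:**
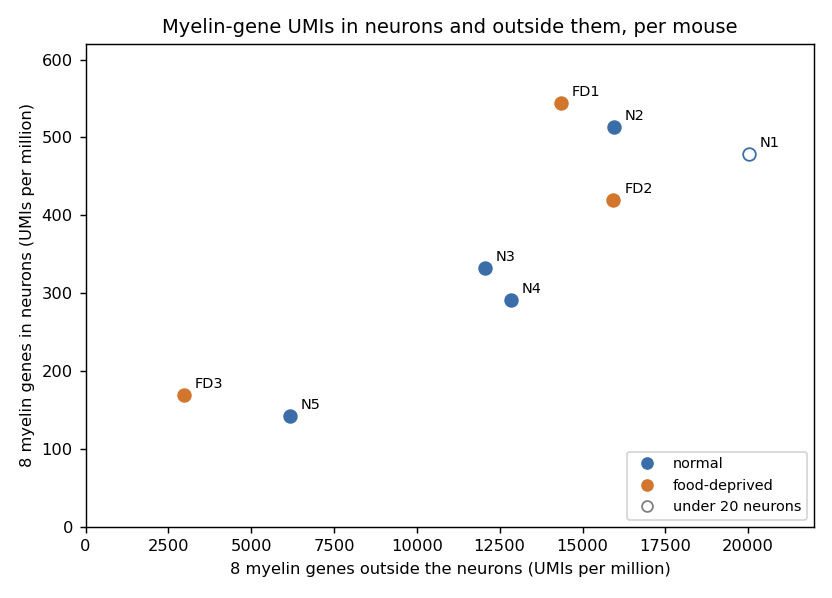
Level of the 8 genes in neurons against the level outside the neurons (both in CPM), with 1 point per mouse. Normal mouse 5 (142 CPM) and food-deprived mouse 3 (169 CPM) are lowest in neurons and are also the lowest outside them, and normal mouse 1 (open point) has under 20 neurons.

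Food deprivation was compared per class over mice, from counts summed per mouse, with edgeR's quasi-likelihood test and Benjamini-Hochberg adjustment over all genes tested. None of the 8 genes passed the test in MO. The test called 0 of the 8, where 0% of the 7977 genes tested were called, 315 had an unadjusted p under 0.05 and DESeq2 called 1. Of the 8, 0 had an unadjusted p under 0.05 and DESeq2 called 0. With batch as a block 16 genes were called, 0.201% of those tested, and 0 of the 8. No member's states were separate, where 3.16% of all genes' were.

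The 2 early genes in MO were Cnp and Mbp. Cnp stood at 9417, 7929, 6456, 7195 and 5055 CPM in the normal mice and 7397, 6944 and 6778 CPM in the food-deprived mice. Mbp stood at 13852, 11144, 12660.4, 11388 and 9884 CPM and at 11441, 11487 and 10724 CPM. The normal mice spread around the food-deprived ones for both genes. The log2 fold change, food-deprived over normal, was -0.03 ± 0.19 (SE) for Cnp, with a 95% interval of -0.43 to 0.36, and -0.08 ± 0.17 for Mbp, with -0.43 to 0.28.

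Cldn11 stood at 10539, 5572, 6556, 6597 and 4953 CPM in the normal mice and at 7482, 7917 and 8201 CPM in the food-deprived mice. Mag stood at 11234, 9076, 6785, 7278 and 5472 CPM and at 6211, 6512 and 7301 CPM. Normal mouse 1, with 37 MO cells, was highest in both. For Cldn11 the overlap of the states rests on this mouse, as every other normal mouse lay below the food-deprived mice. Cldn11 differed by 0.20 ± 0.21 (-0.24 to 0.65) and Mag by -0.25 ± 0.20 (-0.68 to 0.18) on the log2 scale.

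The later genes were as close. Mog stood at 3139, 2471, 2615, 2771 and 2506 CPM in the normal mice and 2694, 2761 and 2751 CPM in the food-deprived mice, a difference of 0.01 ± 0.16 (-0.33 to 0.35) on the log2 scale. Opalin stood at 2538, 1891, 1529, 1689 and 1491 CPM and at 1998, 1766 and 1689 CPM, a difference of 0.00 ± 0.19 (-0.39 to 0.40). Mobp stood at 4315, 3378, 2999, 3359.9 and 1844 CPM and at 3601, 4171 and 3422 CPM, a difference of 0.24 ± 0.21 (-0.20 to 0.69). The food-deprived mice lay inside the range of the normal mice for each of these genes, with normal mouse 1 at its top. For Mobp the other normal mice all lay below the food-deprived mice, so its overlap rests on normal mouse 1. How many of all genes separate without that mouse was not counted. Mal stood at 6238, 4450, 3362, 4019 and 4661 CPM and at 4237, 4427 and 5701 CPM, a difference of 0.07 ± 0.20 (-0.36 to 0.50). The intervals leave room for differences smaller than these bounds.

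**Figure D5:**
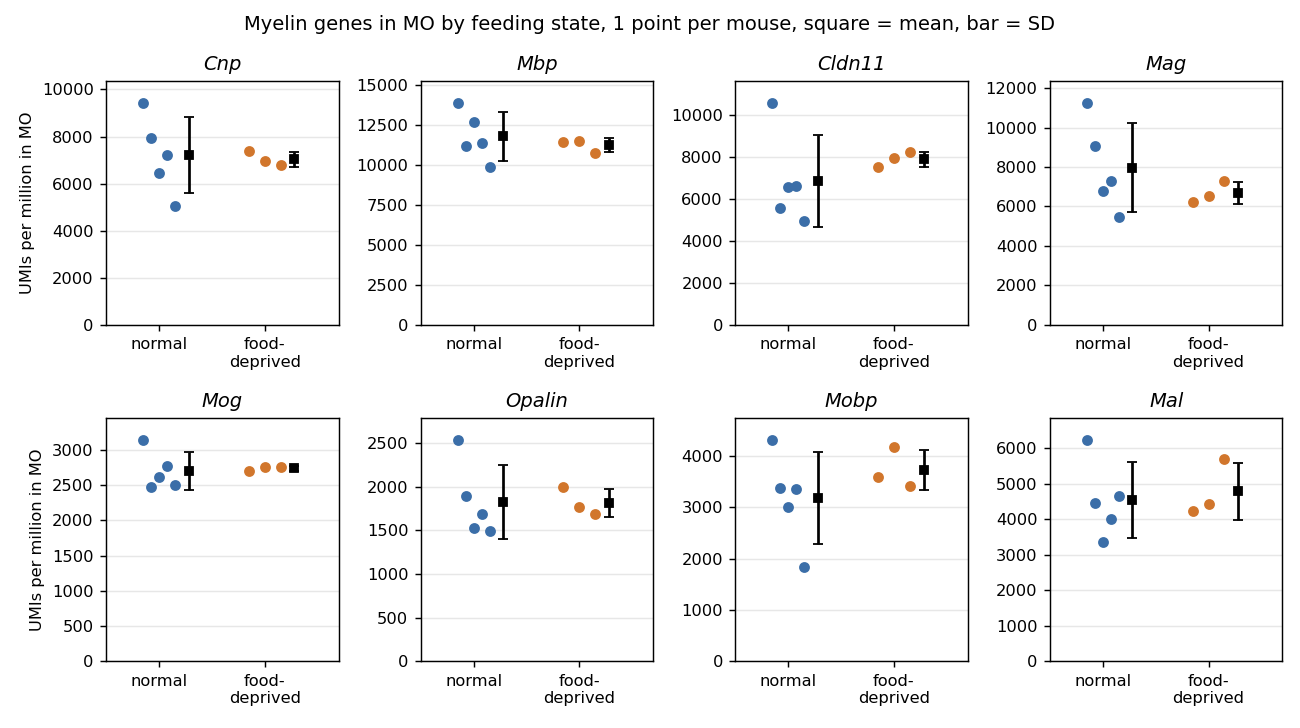
Level of each gene in MO (CPM) by feeding state, 1 point per mouse, with the mean as a square and the SD as a bar. The food-deprived mice lie within the range of the normal mice for each gene, from 6778 to 7397 CPM for Cnp, for example. Normal mouse 1 (37 MO cells) is the top of that range for each gene, and the overlap for Cldn11 and Mobp rests on it.

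In IMO and OPC no member was called either, with 0% of 3230 and 0% of 9265 genes called by edgeR, 150 and 291 genes with an unadjusted p under 0.05, and 0 genes called by DESeq2 in both. IMO rested on 3 normal and 2 food-deprived mice with 20 to 33 cells each. Mog and Mal had separate states there, higher after food deprivation, as 9.47% of genes did. Mog differed by 0.73 ± 0.33 and Mal by 2.66 ± 0.77 on the log2 scale, with an adjusted p in edgeR of 0.952 for Mal. Mal's counts were 0 to 30 UMIs per mouse, and its fitted value depends on the prior count because 2 normal mice had none. The other members in IMO ran from -0.98 ± 0.57 (Mobp) to 0.36 ± 0.31 (Mag), and Opalin was below the filter on low counts. In OPC, with 4 against 3 mice, the 6 members tested ran from -0.24 ± 0.43 (Mbp) to 0.44 ± 0.42 (Cldn11), and Cnp was at 0.29 ± 0.20. None of them had separate states, where 4.84% of genes did, and Mog and Opalin were below the filter. With batch as a block 1 gene in IMO (0.031%) and 18 in OPC (0.194%) were called, none of them members.

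The other lists in MO held no called gene under feeding state alone. The lipid synthesis genes had 1 of 13 tested above 0 and 12 below, with a median of -0.28 against -0.0046 over all genes. The 2 with the smallest p were Fdft1, squalene synthase, at -0.78 ± 0.26 (-0.31 ± 0.18 with batch as a block), and Ugt8a, which makes galactocerebroside, at -0.62 ± 0.23. The same list had 4 of 12 above 0 in IMO (median -0.10) and 4 of 14 in OPC (median -0.09). Of the other membrane genes 8 of 20 were above 0 (median -0.10), with Tmem125 at 0.38 ± 0.20 and Cadm4, an adhesion protein of myelin, at -0.42 ± 0.26. Of the cytoskeletal and enzyme genes 9 of 23 were above 0 (median -0.03), and 5 of 23 with the block (median -0.16), with Tppp3, a tubulin-binding protein, at 0.60 ± 0.21 and Aspa, aspartoacylase, at 0.39 ± 0.16. Gstp1, of the same list, was called with batch as a block, at 0.95 ± 0.17 (edgeR adjusted p 0.0302). Of the genes listed under transcription factors 7 of 11 were above 0 (median 0.11), with Carhsp1 at 0.22 and Olig1 at 0.20 (0.37 and 0.062 with the block). Of the newly formed oligodendrocyte genes 3 of 6 were above 0 (median 0.044), with Rras2 at 1.64 ± 0.47 and Tmem163 at 0.52 ± 0.55. Of the precursor genes 3 of 4 were above 0 (median 0.20), with Olig1 again and Matn4 at 0.22 ± 0.28 as those of smallest p. Markers of other cells were measured in MO as well. Neuron markers had 8 of 9 above 0, with a median of 0.49, Tubb3 at 0.97 ± 0.27 and Syt1 at 1.09 ± 0.33. Astrocyte markers had 3 of 4 above 0 (median 0.34), with Agt at 0.51 ± 0.27 and Gja1 at 0.44 ± 0.31. Endothelial and mural markers had 1 of 2 above 0, with Ly6c1 at 0.41 ± 0.31 and Rgs5 at -0.43 ± 0.45. Their part in the other values was not tested.

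In neurons as a whole no member was called by edgeR, with 0% of 10923 genes called and 232 at an unadjusted p under 0.05. Of the 8, 5 had an unadjusted p under 0.05, among them Mog at 1.36 ± 0.42, Cldn11 at 1.53 ± 0.53 and Opalin at 1.86 ± 0.66 on the log2 scale. The states overlapped for each of the 8, where 4.01% of genes had separate states. In Glu neurons, with 3 mice each, Mal and Cldn11 had separate states, as 4.3% of genes did in the higher direction, and 0% of 8945 genes were called, with 320 at an unadjusted p under 0.05. Cldn11 was 14.3, 13.5 and 5.11 CPM in normal mice 3 to 5 and 77.3, 64.7 and 16.2 CPM in the food-deprived mice, from 4 to 91 UMIs. Mal was 17.6, 20.3 and 11.5 CPM against 58.6, 43.4 and 36.0 CPM. Food-deprived mouse 3 lay close to the normal mice for Cldn11. The log2 difference was 2.34 ± 0.52 for Cldn11 and 1.52 ± 0.30 for Mal, and neither was called (edgeR adjusted p 1.00). With batch as a block Cldn11 was called at 2.37 (edgeR adjusted p 0.0498), as were 0.0224% of genes in the higher direction. That comparison comes only from batches 1 and 2, with food-deprived mice 1 and 2 against normal mice 3 and 4. Without the top 5% of cells per mouse the differences were 0.98 for Cldn11 and 0.17 for Mal. Without the cluster Glu4, an alternative chosen after seeing the data, Cldn11 was 11.2, 11.2 and 3.87 CPM in the normal mice and 54.9 and 16.5 CPM in food-deprived mice 1 and 2. Food-deprived mouse 3 had no Glu4 cell, so its values stayed at 16.2 CPM for Cldn11 and 36.0 CPM for Mal. The states of Cldn11 were then still separate. Mal was then 21.1, 20.6 and 11.6 CPM in the normal mice against 36.6 and 10.3 CPM in food-deprived mice 1 and 2. Food-deprived mouse 2 thus fell below the normal mice, while food-deprived mice 1 and 3 stayed above them. In the 6 classes GABA, Astro, Tany, Ependy, Epith and Micro, edgeR called 0 of the 36 member values tested, 1 of them (Mag in Tany) had an unadjusted p under 0.05, and each of these fits called 0% of its genes. With batch as a block 9 of the 36 had an unadjusted p under 0.05, among them all 8 members in Astro, which ran from 1.03 ± 0.23 (Cnp) to 2.32 ± 0.32 (Mobp) on the log2 scale. None of those 8 was called by edgeR, where 0% of the 5837 genes were. These blocked values also come only from batches 1 and 2, and so from 2 mice per state. How many of all genes had an unadjusted p under 0.05 in that fit was not counted. In Micro, Mbp (2.20), Mag (3.08) and Cldn11 (3.54) passed when normal mouse 3 was left out (edgeR adjusted p 0.0213, 0.0213 and 0.0143). The normal side was then mice 4 and 5, with 115 and 28 cells. They had 42 and 7 UMIs of Mbp, 12 and 0 of Mag, and 7 and 0 of Cldn11. The share of all genes called in that fit was not counted.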

How the data were processed

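Single-cell counts from hypothalamus of 8 mice (5 normal, 3 food-deprived) were used. The values are the authors' deposited UMI counts per gene and cell, not normalized; the genome build is mm9 per the submitters' processing notes, and the aligner is not given in the sources used here. The authors' deposited cluster names were joined to the counts by barcode, giving 14276 of 14437 named cells and 46904254 UMIs. Levels are UMIs of a class and mouse scaled to 1000000 (CPM, at least 10 cells). Sums per mouse (at least 20 cells) were tested with edgeR 4.0.16 in R 4.3.3 (quasi-likelihood F test, TMM normalization, filterByExpr, Benjamini-Hochberg threshold 0.05); DESeq2 1.42.0 was an alternative. The mouse was the replicate. Replicate numbers do not pair mice; the labels give a batch, whose numbers 1 and 2 hold both states, so batch was the block. Cells were thinned to 1000 UMIs for shares, with 95% Clopper-Pearson intervals. Of the tests, the edgeR test without the block was tried on simulated counts, for MO and OPC. Barcodes ending in N (1621) were kept as deposited, and no doublet caller was run. The members in every class were named, and of each other list its counts, the genes called with or without the block, and the 2 with the smallest p in MO; likeness took the 5 closest genes, of which 1 is not reported here. The members and lists were chosen with earlier results of these data known. The alternatives were size factors, DESeq2, no filter, the block, a minimum of 50 cells, retained or depleted libraries alone, leaving out the top 5% of cells, other thinning depths and leaving out each mouse.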

Additional observations from a re-analysis of the deposited data

Results flagged for a closer look

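Of 24 groups of mice tested for a mouse far from the others, 1 was singled out, and chance singles out about 1 in 20. Mog in OPC stood at 47.9 CPM in normal mouse 1, from 1 UMI, where the other 4 normal mice stood at 0 to 12.3 CPM. The gap to the nearest mouse was 0.742 of the whole range.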

How the results depend on the processing

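Genes called in MO were 0, and 16 with batch as a replicate block, 22 with no filter on low counts, 1 with DESeq2 and 37 in depleted libraries of batches 1 and 2 with the block; leaving out each mouse gave 0 to 1. In IMO they were 0, and 1 with the block and 1 with no filter; leaving out each mouse gave 0 to 3, the 3 without either food-deprived mouse, where the lone mouse left was assumed to vary like the others. In OPC they were 0, and 18 with the block, 3 with no filter and 15 in depleted libraries with the block. The Pearson r between neurons and the rest was 0.700 without the 2 mice farthest from the median, and 0.840 to 0.916 leaving out each mouse. Cldn11 in Glu was called with the block only (2.37), among the settings run for it. Of the member changes in OPC, IMO and MO, 127 of 143 kept their direction and side of the threshold apart from leaving out mice, and 117 of 138 on leaving out mice; in the other classes 72 of 94 and 254 of 300 did. The following log2 differences turned sign, and the cause was not tested. With batch as a replicate block, they were in MO Mog -0.00055 and Cnp 0.053, in IMO Mbp 0.14, in OPC Mbp 0.36, in all neurons Mbp 0.31, in GABA Mbp 0.17 and Mag 0.21, in Astro Mag 1.22 and Mal 2.04, in Tany Mbp 0.37, Mag 0.019 and Cnp 0.45, in Epith Mobp -0.086 and Cldn11 -0.21. With DESeq2, they were in MO Opalin -0.0080. With DESeq2's size factors in edgeR, they were in MO Opalin -0.013. With no filter on low counts, they were in MO Cnp 0.0068, in IMO Mbp 0.0078. With at least 50 cells per mouse, they were in MO Cnp 0.13, in OPC Mbp 0.18. With retained libraries alone, they were in MO Mog -0.13, Mal -0.11 and Opalin -0.18, in OPC Cnp -0.099. With depleted libraries of batches 1 and 2 and the block, they were in MO Cnp 0.083, in OPC Mbp 0.31. Without the top 5% of cells, they were in GABA Mal 0.040, in Glu Cnp -0.013, in Astro Mog -0.70, Cnp -0.20 and Cldn11 -0.28, in Tany Mbp 0.20, Mag 0.016 and Cnp 0.32, in Epith Mag 0.46 and Cnp 0.092, in Micro Mal -0.47. Leaving out each mouse turned these as well, with their ranges. In MO they were Opalin -0.077 to 0.13, Mog -0.026 to 0.058, Mal -0.050 to 0.20, Cnp -0.11 to 0.072. In IMO they were Mbp -0.28 to 0.11, Cnp -0.067 to 0.31. In OPC they were Mag -0.35 to 0.32, Mal -0.52 to 0.56, Cldn11 -0.40 to 0.76, Mbp -0.65 to 0.18. In all neurons they were Mag -0.070 to 0.52, Mbp -0.41 to 0.31. In GABA they were Mobp -0.78 to 0.97, Cnp -0.14 to 0.71, Cldn11 -0.71 to 1.16, Mag -0.45 to 0.22, Mbp -0.43 to 0.21, Mal -0.79 to 0.21. In Astro they were Mog -0.51 to 1.60, Cnp -0.15 to 0.68, Mag -0.99 to 0.72, Mal -1.02 to 1.49, Opalin -0.00029 to 1.64. In Tany they were Mbp -1.05 to 0.12, Cnp -0.25 to 0.22. In Ependy they were Mal -0.15 to 0.83, Mbp -0.12 to 1.02. In Epith they were Mbp -0.73 to 0.38, Mobp -1.24 to 0.98, Cldn11 -1.30 to 1.00, Mag -1.81 to 0.71, Cnp -1.95 to 0.36, Mog -1.32 to 0.43. Mbp, Mag and Cldn11 in Micro passed without normal mouse 3 (2.20, 3.08 and 3.54), where normal mouse 5 had 0 UMIs of Mag and Cldn11. The share of all genes called in that fit was not counted, so whether these calls are unusual cannot be judged. Summed levels moved by less than 1 SD in 35 of 35 settings, and 31 of 32 shares of cells moved with the thinning depth. Library types alone and a minimum of 50 cells could not be run in IMO. Depth limits OPC, where several members rest on few UMIs, and IMO, with 20 to 33 cells per mouse.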

Other observations

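Cells named POPC were few, and 2 mice had at least 10 of them. Cnp stood there at 391 CPM in normal mouse 3 (11 cells) and 221 CPM in food-deprived mouse 1 (26 cells), and Mbp at 1174 and 382 CPM. In SCO, with 32 cells of normal mouse 3, Mal stood at 193 CPM and made up 27.3% of 77 UMIs of the 8 genes. In Macro the 8 genes summed to 6775 CPM in food-deprived mouse 2 and to 149 to 2761 CPM in the other mice with at least 10 cells. MO cells of normal mouse 4 gave 44203 CPM for the 8 genes in retained libraries and 44384 CPM in depleted ones, and those of food-deprived mouse 1 gave 38476 and 45639 CPM.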
